A study of Apis mellifera ligustica with 11 samples.

Results

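Brains of Apis mellifera ligustica honeybees exposed to fluvalinate, a pyrethroid used in hives against mites, held transcripts of muscle contractile genes, 6 of which are described here. The rows taken were those with the symbols TpnCI and TpnCIIIa (troponin C), LOC409881 (myosin regulatory light chain 2), LOC410371 (a calcium-transporting ATPase), and LOC408677 and LOC724192 (both described as titin). These are 6 of the 9974 rows of the table, and all 6 were among the 7830 genes tested. The genes were chosen by their measured FPKM in these same libraries. Which comparison was used is not recorded, so their values are a description in every comparison. The 11 libraries comprise 3 labelled as sampled 1 day before exposure and titled as controls, 2 of day 10, 3 of day 20 and 3 of day 30 after it. Fluvalinate was given at the usual dosage for honeybees, with mite treatment repeated every 7 days. Pigment and the glands producing royal jelly were dissected away before RNA was extracted. The labels give neither the age of the bees nor how many were pooled. Nor do they say whether replicates stem from separate colonies, and p-values then reflect only how these libraries spread, which may be technical. With no unexposed bees of the later days analysed here, exposure and elapsed time cannot be told apart.

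Muscle contracts when calcium released inside the fibre binds troponin C, which lets troponin move tropomyosin aside on the thin actin filament so that myosin heads of the thick filament can pull on it. Light chains brace the neck of each myosin head, titin-like giant proteins tie thick filaments elastically to the Z-disc, and a calcium ATPase of the SERCA type pumps calcium back into the store so that the fibre relaxes. The insect brain itself holds no contractile fibres, whereas the head capsule around it holds muscles of the mouthparts and antennae. In Drosophila the single SERCA gene works in the endoplasmic reticulum of all cells, so a SERCA gene alone does not mark muscle.

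Levels are FPKM, fragments scaled by transcript length and by library total. The depth of the libraries is unknown, since FPKM keep no counts, so precision comes from the spread between libraries only. The summed FPKM of a library ranged from 264416 to 468358, and Mrjp1 to Mrjp7, the royal jelly protein genes of the hypopharyngeal gland, made up between 1.51% and 27.0% of it. All 8 neuronal markers listed were present in every library, with brp, a scaffold protein of active zones, the lowest at 8.81 FPKM and above. Of sarcomere-defining genes, the muscle myosin heavy chain LOC409843 ranged from 7.73 to 25.3 FPKM and the muscle actin LOC725404 from 1.29 to 4.75 FPKM. Some others stood higher, such as troponin I (TpnI, 35.27 to 103.23 FPKM) and the alkali light chain of myosin (LOC410058, 24.55 to 82.73 FPKM). Flightin, LOC725364, a thick filament protein of flight muscle in Drosophila, did not exceed 0.42 FPKM in any library.

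The troponin C of type I varied mostly between sampling times, which held 85.6% of its log2 variation. The titins LOC724192 and LOC408677 were close to it, at 83.0% and 82.6%. For LOC409881, TpnCIIIa and LOC410371 the share was 67.6%, 44.5% and 38.8%. The share typical of all genes was not computed. TpnCI stood at 27.0, 27.9 and 29.9 FPKM in replicates 1, 2 and 3 before exposure. Replicates 2 and 3 of day 10 gave 21.0 and 23.0 FPKM, those of day 20 gave 16.4, 11.4 and 8.93 FPKM, and those of day 30 gave 16.3, 12.0 and 12.1 FPKM. Every exposed library lay below every library taken before exposure, the day 20 and day 30 libraries also lay below those of day 10, and days 20 and 30 overlapped. The group means were 28.3 ± 1.47 (SD, n = 3), 22.0 ± 1.44 (n = 2), 12.2 ± 3.78 (n = 3) and 13.5 ± 2.44 FPKM (n = 3). The means of days 20 and 30 were thus 56.7% and 52.3% lower than before exposure. As a position in the library, TpnCI lay above 74.7% to 76.5% of the tested genes before exposure and above 74.0% and 73.7% at day 10. It lay above 44.2% to 61.9% at day 20 and above 51.1% to 56.7% at day 30.

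The other abundant troponin C had no such order. TpnCIIIa stood at 82.0, 92.5 and 132 FPKM before exposure and 108 and 163 FPKM on day 10. Day 20 gave 103, 63.1 and 77.0 FPKM, and day 30 gave 116, 49.1 and 58.7 FPKM. Its highest library was day 10 replicate 3 and its lowest day 30 replicate 2, a span of 3.32-fold, but the range of each exposed day overlapped that before exposure. Both day 10 libraries lay above the 3 of day 20. The means were 102 ± 26.4, 136 ± 38.7, 81.0 ± 20.1 and 74.5 ± 36.0 FPKM (SD, n = 3, 2, 3 and 3) from before exposure to day 30, with an SD of 24.8% to 48.4% of the mean. The within-time SD of TpnCIIIa on the log2 scale was larger than that of 93.6% of the tested genes.

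Because FPKM is per length, the levels of troponin C genes can be set against each other within a library. TpnCIIIa and TpnCI together dominated the 5 troponin C genes measured, TpnCI, TpnCIIa, TpnCIIb, TpnCIIIa and TpnCIIIb. TpnCIIIa alone held 68.7% to 83.7% of their sum. The TpnCI part was 22.6%, 21.9% and 16.4% before exposure, then 14.3% and 11.4% on day 10. Day 20 gave 13.0%, 13.6% and 9.17%, and day 30 gave 11.8%, 17.4% and 15.2%. It was below all libraries before exposure in each library of days 10 and 20, while day 30 replicate 2 overlapped them. TpnCIIa held between 3.92% and 11.6%, and TpnCIIb and TpnCIIIb did not exceed 2.02 FPKM in any library. The ratio of TpnCIIIa to TpnCI went from 3.59 ± 0.73 (SD, n = 3) before exposure to 6.14 ± 1.36 (n = 2), 6.81 ± 1.61 (n = 3) and 5.34 ± 1.57 (n = 3).

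LOC409881, the light chain of the thick filament, followed TpnCIIIa rather than TpnCI up to day 10. It stood at 65.5, 75.3 and 112 FPKM before exposure and 96.5 and 121 FPKM on day 10. Day 20 gave 48.7, 49.3 and 69.7 FPKM, and day 30 gave 66.0, 30.3 and 44.6 FPKM. Both day 10 libraries lay above all libraries of days 20 and 30, and they overlapped those before exposure. With means of 84.3 ± 24.7, 109 ± 17.6, 55.9 ± 12.0 and 47.0 ± 18.0 FPKM (SD, n = 3, 2, 3 and 3), its span over the libraries of 4.01-fold was the widest of the 6 genes. TpnCIIIa and LOC409881 kept a ratio of 1.18 to 1.25 in the libraries before exposure and 1.12 and 1.34 at day 10. At days 20 and 30 the ratio ran from 1.10 to 2.11, with the highest value in day 20 replicate 1.

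LOC410371, the SERCA-type pump, varied least in span. It stood at 95.3, 67.8 and 80.7 FPKM before exposure and 72.0 and 89.6 FPKM on day 10. Day 20 gave 72.2, 59.6 and 67.0 FPKM, and day 30 gave 71.0, 70.7 and 82.1 FPKM. No sampling time stood clear of another, and the highest library was 1.60 times the lowest.

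The titins were lowest at day 10, where the light chain and TpnCIIIa had their highest means. LOC408677 stood at 85.1, 69.3 and 79.9 FPKM before exposure and 32.5 and 47.7 FPKM on day 10. Day 20 gave 60.0, 47.4 and 53.5 FPKM, and day 30 gave 60.9, 62.9 and 64.9 FPKM. In FPKM as deposited, all 8 exposed libraries lay below those taken before exposure, days 10 and 20 overlapped, and day 30 lay above both. LOC724192 stood at 37.6, 35.1 and 37.3 FPKM before exposure and 19.5 and 26.0 FPKM on day 10. Day 20 gave 31.9, 31.3 and 31.5 FPKM, and day 30 gave 38.7, 31.3 and 35.1 FPKM. In FPKM as deposited, its day 10 libraries lay below all others, those of day 20 below those before exposure, and those of day 30 overlapped both of the latter. The ratio of LOC408677 to LOC724192 was 2.13 ± 0.15 (SD, n = 3) before exposure and 1.75 ± 0.12 (n = 2), 1.70 ± 0.18 (n = 3) and 1.81 ± 0.22 (n = 3) afterwards. In the RefSeq assembly Amel_HAv3.1, LOC408677 overlaps 2 long noncoding RNA genes, and LOC724192 overlaps 2 such genes and the protein-coding genes LOC100577977 and LOC410034. Both of these reached at most 0.66 FPKM. The sources do not state whether reads were counted by strand, so reads may be shared between a titin and genes that overlap it. The other 4 of the 6 genes overlap no annotated gene there. Several rows of the table are described as titin, and how the authors' pipeline divided reads among similar repeats is uncertain.

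**Figure D1:**
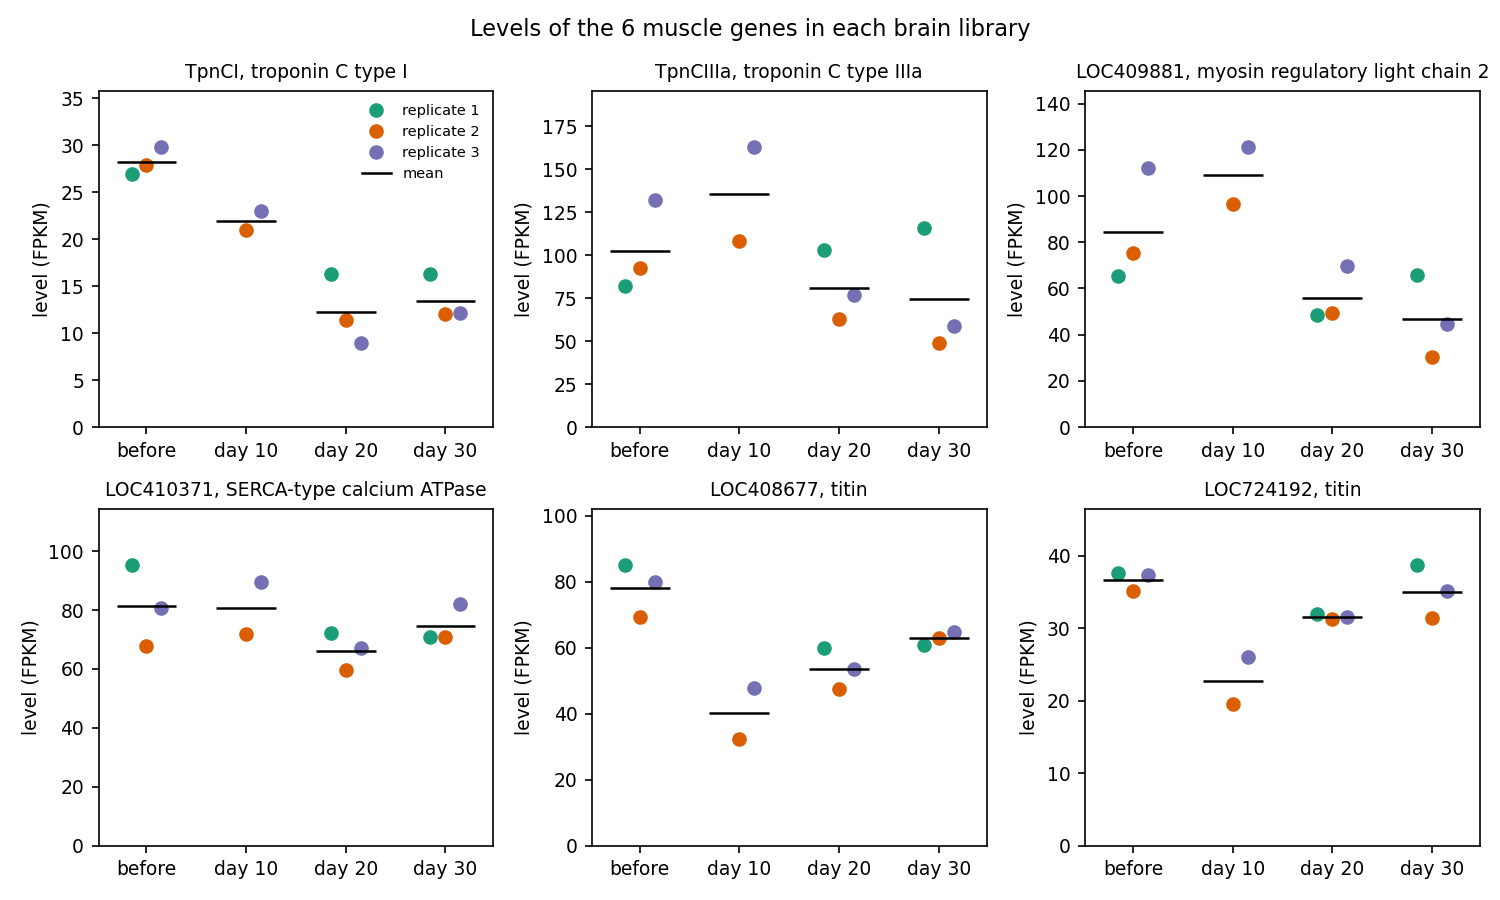
FPKM (vertical axes, each from 0) of the 6 muscle genes in the 11 brain libraries by sampling time. Points are libraries coloured by replicate number and lines are group means; TpnCI lies at 27.0 to 29.9 FPKM before exposure and at 8.93 to 16.4 FPKM at day 20, while both titins have their lowest libraries at day 10.

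**Figure D2:**
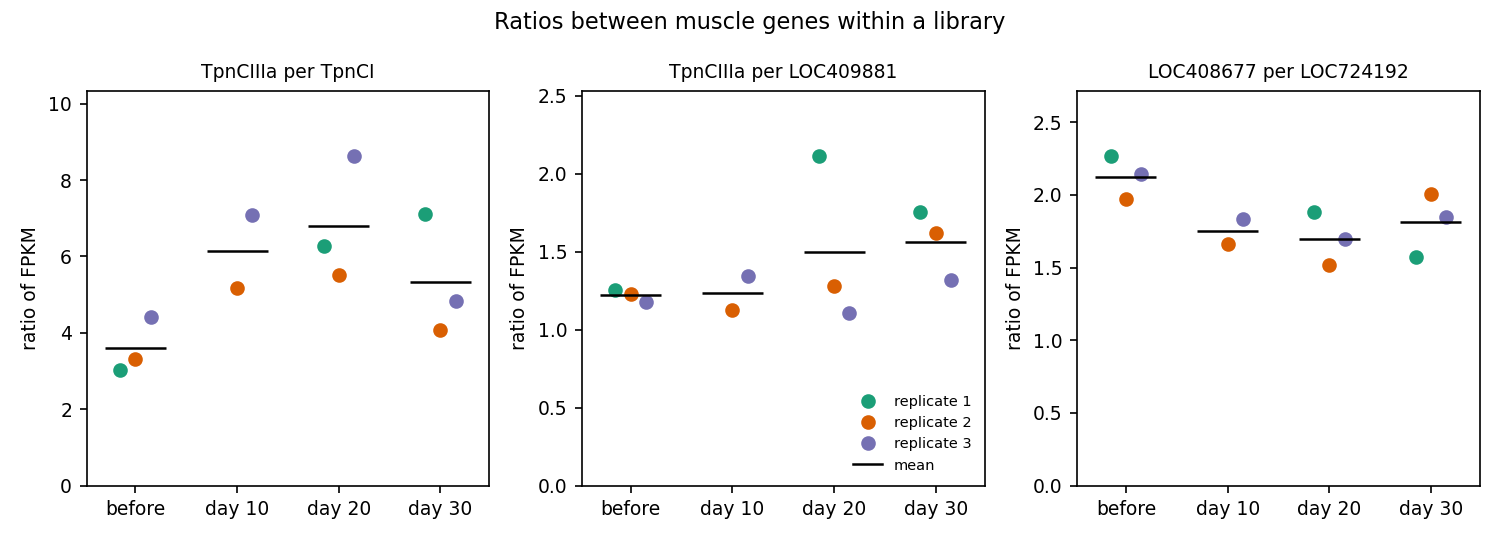
Ratio of FPKM between pairs of muscle genes within each library (vertical axes, from 0) by sampling time, with points for libraries and lines for group means. TpnCIIIa per TpnCI lies at 3.04 to 4.42 before exposure and at 5.53 to 8.62 at day 20, and LOC408677 per LOC724192 stays between 1.51 and 2.26.

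Differences between sampling times were fitted with limma on log2(FPKM + 1) over all 7830 genes, and are given here relative to the median gene of the comparison. That median was -0.18 for day 10 against before exposure, -0.11 for day 20, 0.03 for day 30, and 0.22 for day 30 against day 10. With median-of-ratios scaling of the libraries these medians were between 0.00 and 0.02 in size. All adjusted p-values are from limma with Benjamini and Hochberg's method over all tested genes and test the differences before the median is subtracted.

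Against the libraries taken before exposure, TpnCI differed by -0.17 ± 0.21 (SE) on this scale at day 10, -1.07 ± 0.19 at day 20 and -1.06 ± 0.19 at day 30. Of the 7830 genes, 9 had a lower value than TpnCI at day 20 and 19 had a lower one at day 30. At day 20 that number was 214 for LOC409881, 274 for LOC408677, 1040 for TpnCIIIa, 1431 for LOC410371 and 2285 for LOC724192. These ranks only describe genes chosen by their values in these libraries. TpnCIIIa differed by 0.58 ± 0.34, -0.22 ± 0.30 and -0.55 ± 0.30 in the same order, and LOC409881 by 0.57 ± 0.30, -0.45 ± 0.27 and -0.89 ± 0.27. LOC410371 stayed within 0.17 of the median gene in size on every day. LOC408677 differed by -0.79 ± 0.16, -0.42 ± 0.15 and -0.33 ± 0.15, and LOC724192 by -0.50 ± 0.14, -0.10 ± 0.12 and -0.10 ± 0.12. By these fitted values alone, the 6 genes held 3 shapes: low at days 20 and 30 (TpnCI), high at day 10 and lower later (TpnCIIIa and LOC409881), and lowest at day 10 (the titins), with LOC410371 near the median gene. The day 10 libraries of TpnCIIIa and LOC409881 overlapped those before exposure, and the shapes were not tested.

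All day 10 libraries lay below all of those before exposure for TpnCI and both titins, as for 38.3% of all genes, with the reverse in 9.74%. At day 20 this held for the same 3 genes (18.9% of all genes lower, 1.63% higher), and at day 30 for TpnCI and LOC408677 (7.02% lower, 3.37% higher). Against day 10, the day 20 libraries were all lower for TpnCI, TpnCIIIa and LOC409881 and all higher for LOC724192 (16.8% and 28.5% of all genes), and those of day 30 all lower for TpnCI and LOC409881 and all higher for both titins (5.68% and 37.6%). Day 30 stood clear of day 20 for LOC408677, which was higher (13.4% of all genes higher, 1.42% lower). All such separations and percentages are of FPKM as deposited. Median-of-ratios scaling divides each library by a factor, from 0.86 for day 10 replicate 2 to 1.19 for day 30 replicate 1. After that division, LOC408677 at day 30 overlapped the libraries before exposure and those of day 20. LOC724192 at day 20 then overlapped those before exposure.

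Both titins were called lower at day 10, among 16.9% of all tested genes called lower and 2.22% called higher. None of the 6 was called at day 20 or day 30, where the percentage of all genes called was 0 and 0, with 774 and 562 genes at an unadjusted p of 0.05. At day 30 against day 10, LOC409881 was called lower (-1.47 ± 0.30 relative to the median gene) and both titins higher (0.45 ± 0.16 for LOC408677 and 0.39 ± 0.14 for LOC724192), among 1.37% and 9.41% of all genes. None of the 6 was called at day 20 against day 10 (0.0255% of all genes called higher and 0.0766% lower, 0.102% in all) or day 30 against day 20 (0% of all genes, with 503 at an unadjusted p of 0.05). Nothing is read from these counts, since the genes were chosen with such results in view. The 2 calls at day 10 were lost without day 10 replicate 2 (adjusted p = 0.116 for LOC408677 and 0.152 for LOC724192 with limma). Their differences were then -0.57 and -0.36. The 3 calls at day 30 against day 10 were lost without day 10 replicate 2, without day 30 replicate 1 or without day 30 replicate 3, and that of LOC409881 also without day 10 replicate 3 and that of LOC408677 without day 20 replicate 3. With median-of-ratios scaling the titins were not called at day 30 against day 10 (adjusted p = 0.189 for LOC408677 and 0.113 for LOC724192 with limma). TpnCI, not called in the main comparison with before exposure (limma adjusted p = 0.084 at day 20 and 0.137 at day 30), was called lower at day 20 without day 20 replicate 1 (0.0304) and without day 30 replicate 2 (0.0295), and at day 30 without day 20 replicate 1 (0.0411). Without that library it was also called lower at day 30 against day 10 (0.0447). At day 20 against day 10, LOC408677 and LOC724192 were called higher without day 10 replicate 3 (limma adjusted p = 0.0361 and 0.032).

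The other genes of the contractile machinery were taken by words in their descriptions, 54 besides the 6, of which 41 had a mean of at least 1 FPKM and were tested. They comprise 6 tested thick filament genes, 11 of the thin filament, 12 elastic and Z-disc genes, 4 of calcium handling, 7 of the dystrophin-associated membrane complex and 1 muscle transcription factor. The words also brought in genes that are not restricted to muscle, such as LOC550973 (sqh, the light chain of nonmuscle myosin), the calponin homology protein LOC409027, the ryanodine receptor and the membrane complex. The FPKM of all 54 summed to 1001, 959 and 1165 before exposure and to 894 and 1069 on day 10. Day 20 gave sums of 827, 707 and 744, and day 30 gave 893, 676 and 777. All libraries of days 20 and 30 lay below all of those before exposure. In bulk tissue, fewer cells of a type and less RNA per cell cannot be told apart.

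At day 10 the thick and thin filament genes lay mostly above the median gene and the membrane complex below it. Of the 41 other genes 5 fell and none rose, 12.2% against 16.9% of all genes, and 22 lay above the median gene, with a list median of 0.08 on the log2 scale. The 5 were junctophilin LOC552577, which ties the plasma membrane to the calcium store (8.51 ± 2.62 to 3.20 ± 1.68 FPKM, SD, n = 3 and 2), tropomodulin LOC409024, the cap of thin filaments (115 ± 7.69 to 72.0 ± 12.9 FPKM), alpha-sarcoglycan LOC724251, beta-1-syntrophin LOC724333 and the transcription factor LOC413946 (MEF2, 79.5 ± 5.32 to 54.8 ± 6.95 FPKM). Their limma adjusted p-values lay between 0.0106 and 0.0486. MEF2 drives muscle differentiation in Drosophila and is also expressed in neurons of the insect brain. All 6 thick filament genes and 8 of 11 thin filament genes had values above the median gene, with medians of 0.31 and 0.19, and none of these 14 passed. LOC410058, the alkali light chain of myosin, differed by 0.65 ± 0.26 and TpnCIIa by 0.80 ± 0.35. All 7 membrane complex genes lay below the median gene, with a median of -0.34, and both day 10 libraries lay below the 3 before exposure in each of the 7, as they did in 38.3% of all genes. The elastic and Z-disc genes were divided, 6 on each side, from -0.45 ± 0.23 for LOC726252, another titin, to 1.07 ± 0.35 for LOC725594 (Zasp). Other tested rows described as titin or titin homolog did not share 1 direction. LOC551259 differed by -0.24 ± 0.25, LOC725936 by -0.30 ± 0.27 and LOC410204 by 0.35 ± 0.19. The means of LOC551259 and LOC725936 were lower at days 20 and 30 than at day 10, and that of LOC410204 was highest at day 10. With median-of-ratios scaling 1 of the 41 passed, LOC552577. The count was 0 without day 10 replicate 2, 11 without day 10 replicate 3, 3 without before-exposure replicate 3 and 3 without day 20 replicate 3, and the list median turned to -0.09 without day 10 replicate 3.

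At day 20 no muscle gene passed, yet 38 of the 41 other genes lay below the median gene, with a list median of -0.34. Limma called none of the 41 and none of the 7830 genes, and at an unadjusted p of 0.05 18 of the 41 were lower and none higher, against 8.61% and 1.28% of all genes. In 20 of the 41 (48.8%) all day 20 libraries lay below all of those before exposure, against 18.9% of all genes, and in none the reverse, against 1.63%. LOC408972, muscle-specific protein 20, a calponin-like protein of muscle in Drosophila, stood at 77.5 ± 16.1 FPKM before exposure and 42.2 ± 12.3 FPKM at day 20. TpnI, the inhibitory subunit of troponin, stood at 86.0 ± 15.0 and 50.5 ± 5.61 FPKM, and LOC409787, paramyosin, the core protein of invertebrate thick filaments, at 37.3 ± 4.54 and 22.2 ± 4.52 FPKM. The myosin heavy chain LOC409843 differed by -0.78. The role medians were -0.51 for the thick filament, -0.45 for the thin filament, -0.37 for elastic and Z-disc genes, -0.35 for calcium handling and -0.15 for the membrane complex.

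Day 30 was compared with the same libraries before exposure as day 20, and again no muscle gene passed. None of the 41 and none of the 7830 genes was called by limma, 17 of the 41 were lower and none higher at an unadjusted p of 0.05 (4.28% and 2.9% of all genes), and 40 of the 41 lay below the median gene, with a list median of -0.40. In 16 of the 41 (39%) all day 30 libraries lay below all of those before exposure, against 7.02% of all genes. Tropomyosin LOC408583, which covers the myosin sites of actin, stood at 82.4 ± 6.08 FPKM before exposure and 57.1 ± 8.37 FPKM at day 30, and the Z-disc protein LOC411285 (Mlp84B) at 16.6 ± 3.18 and 10.2 ± 2.82 FPKM. Sarcomeric alpha-actinin LOC725782, which crosslinks actin at the Z-disc, stood at 44.2 ± 1.43 and 36.9 ± 2.13 FPKM. The nonmuscle light chain LOC550973 stood at 59.0 ± 7.08 and 55.7 ± 5.88 FPKM. The role medians were -0.61, -0.56, -0.48, -0.29 and -0.09 in the same order. Between days 20 and 30 none of the 41 was called by limma and none had an unadjusted p under 0.05, and the list median was -0.08.

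From day 10 to day 30, thick filament, thin filament and Z-disc genes fell and a junctophilin rose. Of the 41 other genes 9 fell (22%) and 1 rose (2.44%), while of all genes 1.37% fell and 9.41% rose, and the list median was -0.40. Those that fell were 2 of 6 thick filament, 4 of 11 thin filament and 3 of 12 elastic and Z-disc genes. LOC410058 fell from 75.7 ± 9.99 to 36.4 ± 14.7 FPKM (SD, n = 2 and 3), LOC408972 from 95.3 ± 10.8 to 43.1 ± 6.15 FPKM, TpnCIIa from 15.7 ± 1.82 to 6.48 ± 1.29 FPKM and LOC725594 from 17.9 ± 3.25 to 7.40 ± 3.71 FPKM. Relative to the median gene, TpnI differed by -1.07, LOC409787 by -1.21 and LOC411285 by -1.29. The limma adjusted p-values of these 7 lay between 0.0254 and 0.0496. LOC552577 rose by 1.01 ± 0.28 (adjusted p = 0.0309), and 6 of 7 membrane complex genes lay above the median gene without passing. With median-of-ratios scaling 7 of the 41 fell and none rose, while of all genes 45 fell and 15 rose. The count of 10 went to 0 without day 10 replicate 2 or without day 30 replicate 3, to 2 without day 30 replicate 1, to 4, 5 and 6 without day 20 replicates 3, 2 and 1, and to 6 without before-exposure replicate 2. Without day 10 replicate 3, which left 1 library at day 10, more of the called genes rose than fell, as among all genes. Without day 30 replicate 2, 5 rose and 6 fell, while of all genes 1051 rose and 189 fell. Whichever library was left out, the list median stayed below the median gene, between -0.59 and -0.40. At day 20 against day 10 limma called none of the 41, with 15 lower and 5 higher at an unadjusted p of 0.05, where 5.17% of all genes were lower and 15.6% higher. With median-of-ratios scaling it called 3, all lower, among them LOC408972 and LOC411285.

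**Figure D3:**
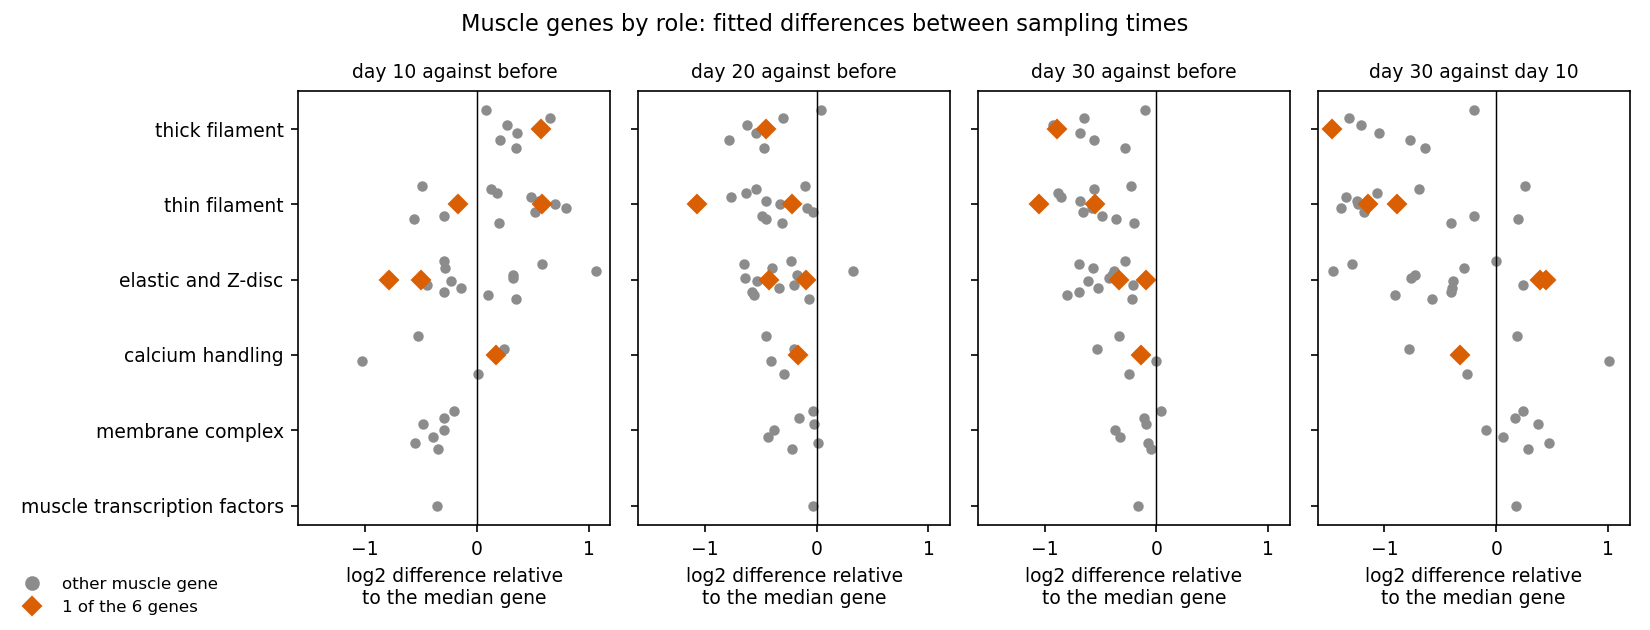
Log2 difference relative to the median gene (horizontal axes) of each tested muscle gene by role (rows) in 4 comparisons of sampling times; grey points are the 41 other muscle genes and orange diamonds the 6 genes. Of the grey points 38 lie left of 0 at day 20 and 40 at day 30. For day 30 against day 10, LOC408677 and LOC724192 lie right of 0 and the light chain LOC409881 at -1.47. Among the grey titins there, LOC726252 lies right of 0 and LOC551259, LOC725936 and LOC410204 lie left of it.

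Genes with the most similar profile over the 11 libraries differed between the 6. Likeness was the root mean square difference between log2(FPKM + 1) profiles centred on each gene's mean, over 5178 named candidates with a mean of at least 5 FPKM, and values are in log2 units. For TpnCI the nearest were LOC408972 (0.26), TpnI (0.27) and LOC408583 (0.27), and for TpnCIIIa they were TpnT (troponin T, 0.16), LOC408414 (tropomyosin-1, 0.17) and LOC410058 (0.18). For LOC409881 they were LOC410058 (0.14), LOC408414 (0.22) and LOC410857 (protein lethal(2)essential for life, 0.23). All but the last of these 9 positions were held by genes of the muscle list. None of the genes nearest to the titins or to LOC410371 was in that list. For LOC408677 these were neurobeachin LOC724172 (0.07), the plasma membrane calcium pump LOC551261 (0.08) and LOC408801 (split ends, 0.08). LOC724192 had LOC410606 (Skeletor, 0.05), the potassium channel LOC413994 (slowpoke, 0.05) and LOC552604 (a SLIT-ROBO GTPase-activating protein, 0.05) nearest, and LOC410371 had LOC726770 (caskin-1-like, 0.12), LOC408607 and LOC413474. A gene that varies little is near many others on this measure. LOC410371, LOC724192 and LOC408677 varied by 0.19, 0.26 and 0.36 about their own means, against 0.57 for LOC409881. Among pairs of the 6, the titins were nearest to each other (0.17), followed by TpnCIIIa and LOC409881 (0.27), and the farthest pair was LOC409881 and LOC408677 (0.73). Genes of the muscle list lay farther from these 2 titins than the 3 nearest genes named, and how many other genes lay between was not counted. The closest in the list was tropomodulin LOC409024 for both, at 0.11 for LOC724192 and 0.16 for LOC408677, and beta-1-syntrophin LOC724333 (0.19) for LOC410371.

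Markers of other tissues moved between the sampling times as well. The thick and thin filament lists other than the 6, with the nonmuscle LOC550973 and LOC409027 among them, summed to 608 to 786 FPKM before exposure, 634 to 752 at day 10, 423 to 521 at day 20 and 388 to 562 at day 30. The 8 neuronal markers summed to 487 to 568, 209 to 290, 385 to 432 and 401 to 509 FPKM at the same times, and all 8 fell at day 10 in limma's test, in which 16.9% of all genes fell. In the same test 5 of 7 royal jelly protein genes rose (2.22% of all genes), and 3 of 8 glial, 2 of 18 cuticle and 1 of 12 photoreceptor-related genes fell. Without day 10 replicate 2, none of the neuronal, gland or glial genes was called, and with median-of-ratios scaling 8 neuronal, 5 gland and 0 glial genes were. The 7 royal jelly protein genes summed to 4662 to 12863 FPKM before exposure, 94231 to 126260 at day 10, 44155 to 85199 at day 20 and 4234 to 36823 at day 30. The 5 fat body genes, led by Vg, summed to 47.1 to 50.7, 82.4 to 89.2, 33.9 to 52.0 and 16.3 to 33.5 FPKM, with Hex70c, of larval fat body, at a mean under 1 FPKM. For the 13 photoreceptor-related genes, led by Lop1, the sums were 415 to 762, 703 to 801, 769 to 2000 and 1297 to 1317 FPKM, and for the 9 glial genes, led by GlnS, 2268 to 3071, 1714 to 2176, 2630 to 3163 and 2200 to 3149 FPKM. The 2 haemocyte genes, PPO and LOC411597, summed to 14.7 to 26.7 FPKM over all libraries, and the 48 cuticle genes, led by Cpap3-d and CPR14, to 150 to 277 FPKM. The part of these differences in the levels of the muscle genes was not tested. The mean neuronal and glial sums, like the means of LOC408677 and LOC724192, were lowest at day 10. By contrast, the filament sums of days 20 and 30 lay below those of day 10 in every library.

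**Figure D4:**
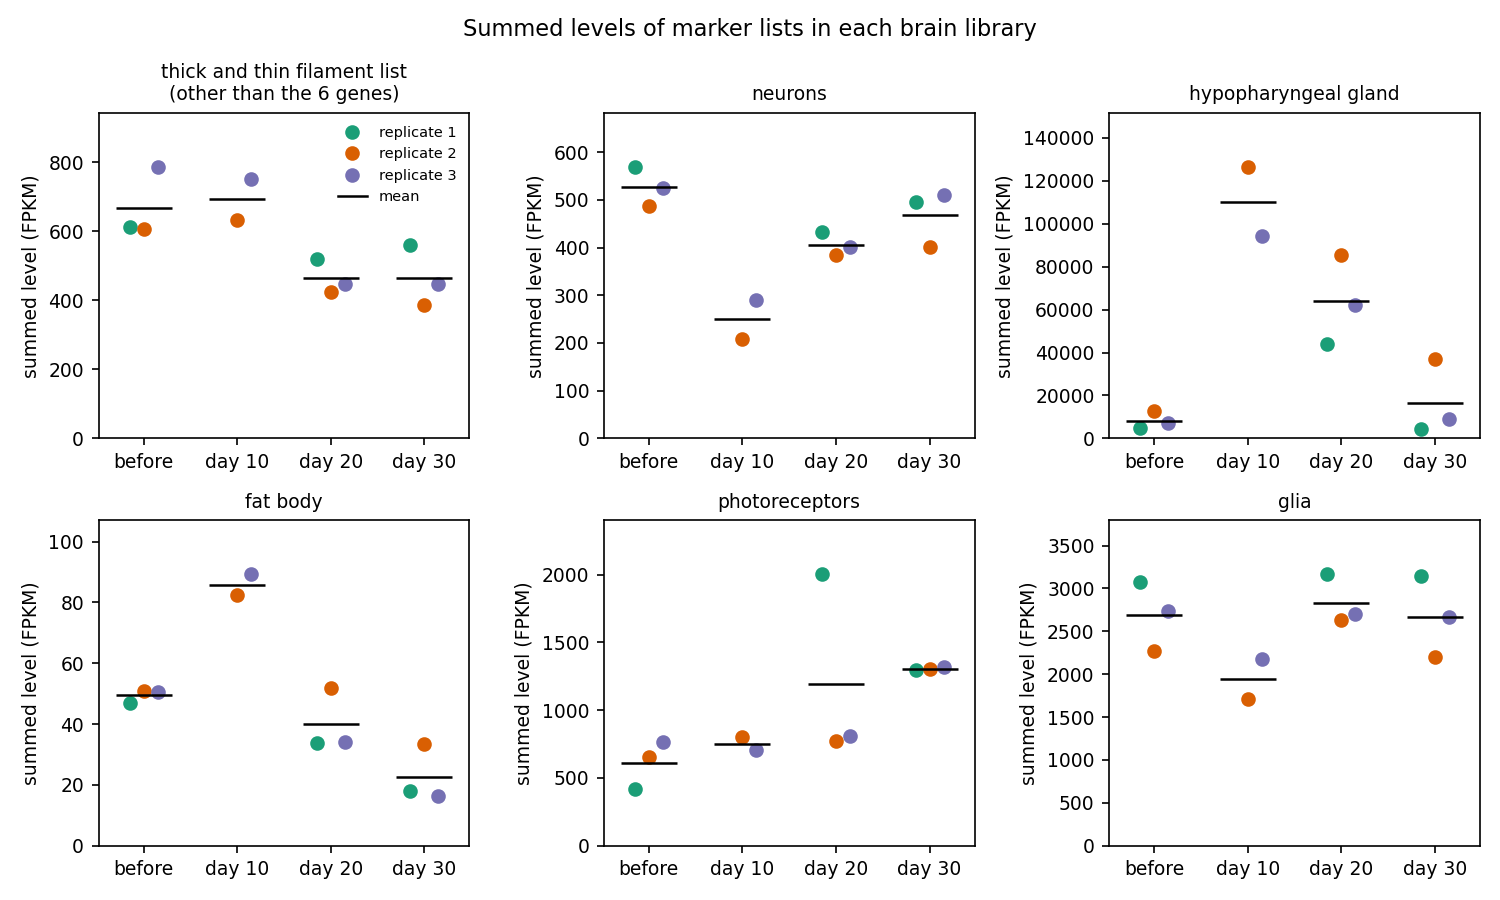
Summed FPKM of 6 marker lists (vertical axes, from 0) in the 11 libraries by sampling time, with points for libraries coloured by replicate number and lines for group means. The thick and thin filament list, which also holds the nonmuscle light chain LOC550973 and LOC409027, sums to 608 to 786 FPKM before exposure and 388 to 562 at day 30, the neuronal list is lowest at day 10, and the gland list is highest there.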

How the data were processed

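The authors deposited 1 table of FPKM per gene and library, rounded to 2 decimals; the unit is given per the file headers. Tools listed per the submitters' processing notes, with no roles given, are HISAT2 2.1.0, StringTie and fastp 0.18.0. The build, the annotation and any strand setting: not given in the sources used. Columns were matched to samples by title, and 1 FPKM column was not used. Its header names replicate 1 of day 10, for which no sample is labelled. Symbols are those of the table, and all 9935 NCBI gene numbers matched RefSeq Amel_HAv3.1, used only for names and neighbours.

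Genes averaging 1 FPKM or more across all 11 libraries entered a single limma 3.58.1 fit (R 4.3.3) of log2(FPKM + 1) on the 4 sampling times. The variance prior followed a trend, 7 residual degrees of freedom remained, and genes were called at a Benjamini-Hochberg adjusted p under 0.05. A log2(FPKM + 1) difference understates the change of low genes. The fit was also run on simulated data with independent genes, read only for day 30 against before exposure. That run does not cover the comparisons with day 10. The members, lists and tests were chosen with earlier results of these data known. Other muscle genes are named if among the 4 most abundant of their role or the 4 largest called differences of a comparison in each direction. LOC409843, LOC725404, LOC725364, LOC726252, LOC551259, LOC725936, LOC410204 and LOC409027 were named after their values were seen. For each of the 6 genes, the 3 nearest profiles are given. Alternatives were another pseudocount (0.1), no filter or a mean of 5 FPKM, median-of-ratios scaling, the replicate number as a block, and leaving out each library.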

Additional observations from a re-analysis of the deposited data

How the results depend on the processing

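Of 576 recomputed log2 differences of the 6 genes, 567 kept their sign, and the 9 that changed it belonged to differences of at most 0.14 in size. Whether the replicate numbers pair the samples could not be settled. After centring on group means, correlations of same-numbered libraries lay between -0.24 and 0.31, 3 of 15 over 0.1, against 10 of 30 for other pairs. Centring ties these values together, since the day 10 libraries then mirror each other. With the replicate block limma called 11 genes at day 20 against before exposure, among them TpnCI (adjusted p = 0.0421), and 414 at day 30 against day 10, TpnCI included (0.0495, and 0.0465 with a mean of at least 5 FPKM). It called 1 of the 41 other muscle genes at day 20 against before exposure and 1 at day 20 against day 10. For all genes, the 1500 called at day 10 became 762 with median-of-ratios scaling (41.1% higher, against 11.6% as deposited), and the 844 at day 30 against day 10 became 60 (25% higher, against 87.3%) and 501 without a filter. The 8 at day 20 against day 10 became 0 with a pseudocount of 0.1 or no filter, 24 with a mean of 5 FPKM and 32 with median-of-ratios scaling. For the 41 other genes, median-of-ratios scaling gave 1 call at day 10 and 3 at day 20 against day 10, and a mean of 5 FPKM gave 2 at the latter. The list median with a mean of 5 FPKM was 0.22 at day 10, -0.52 at day 30, -0.55 at day 20 against day 10 and -0.75 at day 30 against day 10, where without a filter the last 2 were -0.18 and -0.21. Fewer or more low genes enter under these filters, and the cause of the other shifts was not tested.

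Leaving out 1 library in turn, all genes called ranged from 2 to 1697 at day 10, 0 to 14 at day 20, 0 to 7 at day 30, 0 to 549 at day 20 against day 10, 0 to 1 at day 30 against day 20 and 0 to 1247 at day 30 against day 10. Calls among the other muscle genes ranged from 0 to 11, 0 to 0, 0 to 0, 0 to 3, 0 to 0 and 0 to 11 in the same order. Their median ranged from -0.092 to 0.14, -0.48 to -0.24, -0.56 to -0.31, -0.45 to -0.26, -0.12 to -0.02 and -0.59 to -0.40. Without a day 10 library, the lone one left was assumed to vary like the other groups. Depth is unknown, so any limit that it sets, above all for low genes, could not be judged.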
